A study of Mus musculus with 10 samples.

Results

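The 10 genes described here, Spp1, Apoe, Trem2, Tyrobp, Cst7, Lpl, Clec7a, Itgax, Axl and Cd68, are markers of activated microglia. They were selected by symbol from general knowledge of this cell state and with earlier results of these same libraries known, from 53379 genes in all. Their own levels and differences are therefore given as a description, and the numbers of them that passed a test are printed once beside the share of all genes, with nothing read from them. Tests are given for genes outside the 10, whose lists were also chosen with earlier results known, so their p-values are not independent of that choice.

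RNA-seq was performed on material sorted by fluorescence from the microdissected hippocampal regions of male mice that were 5 weeks old. Cells active during an experience had been labeled with ChR2-EYFP by viral vectors that answer to the c-Fos promoter in the absence of doxycycline, a promoter that marks recent activity and not a cell type. The aversive group (2 libraries) received 4 foot shocks of 1.5 mA lasting 2 s each, the appetitive group (2 libraries) was exposed to a female for 1 h according to the labels (the methods give a different time), and the neutral group (3 libraries) was placed in the conditioning cage with neither stimulus. A mock group (3 libraries) came from home cage mice and is described in the methods as an untagged control. Each condition pooled 8 mice by the methods, which also give fewer mock mice than there are mock libraries, so some libraries share mice and the spread between libraries may be technical. All groups passed through the same warm enzymatic dissociation. The sorted material is called nuclei in one place and cells in another in the sources used here. A different kit and sequencer served for the neutral libraries than for the other 7, so that neutral housing and library preparation cannot be told apart in any comparison with neutral.

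Microglia are the resident macrophages of the brain. When they meet dying cells, amyloid, demyelinated debris or injury, they lower their homeostatic genes and raise a shared set of genes for lipid uptake, phagocytosis and lysosomal degradation, known as the disease-associated or activated state. Trem2, a lipid-sensing surface receptor, signals through its adaptor Tyrobp, and passage into the later stage of the state, marked by Spp1, Cst7, Lpl, Clec7a, Itgax and Axl, depends on it in models of neurodegeneration.

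Read counts per gene were deposited for each library, with totals from 16968588 to 67650693. Levels are given here as CPM, counts relative to sequencing depth, with library totals corrected by TMM factors from 0.48 to 1.45. A count of 3, the smallest taken as detectable, corresponded to 0.0346 to 0.235 CPM. This floor covers counting error only, because copies made by PCR were not told apart. Bulk RNA gives 1 value per library, so fewer cells of a type and less RNA per cell cannot be told apart.

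Markers of cell types were examined first, because the libraries differed in their content. The 12 homeostatic microglia markers summed to 1403, 1853 and 10604 CPM in the mock libraries, 3727 and 2077 CPM in the aversive libraries, 2567 and 957 CPM in the appetitive libraries and 39.9, 348 and 253 CPM in the neutral libraries. Microglial RNA was thus detected in all libraries, but neutral replicate 1 had 0 counts of Cx3cr1, Sall1, Siglech, P2ry13 and Slc2a5. The 8 neuronal markers, led by Snap25, summed to only 76.8 to 762 CPM, although the sort was for activity-tagged cells in the groups other than mock. Oligodendrocyte markers ranged from 7472 to 802988 CPM, and Mbp, a myelin protein, alone took 30.8% of the counts of appetitive replicate 1 and 0.983% of those of appetitive replicate 2. Choroid plexus markers, led by the thyroid hormone carrier Ttr, summed to 147368, 30975 and 112335 CPM in neutral and to at most 20626 CPM in the other libraries. Replicates resembled each other most in mock, with Spearman correlations of 0.91 to 0.922 over the tested genes, against 0.637 for the aversive and 0.606 for the appetitive pair. The appetitive libraries had the fewest detected genes, 14144 and 14658, against 16849 to 30899 in the other libraries. The part of this in the low appetitive levels given below was not tested.

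**Figure D1:**
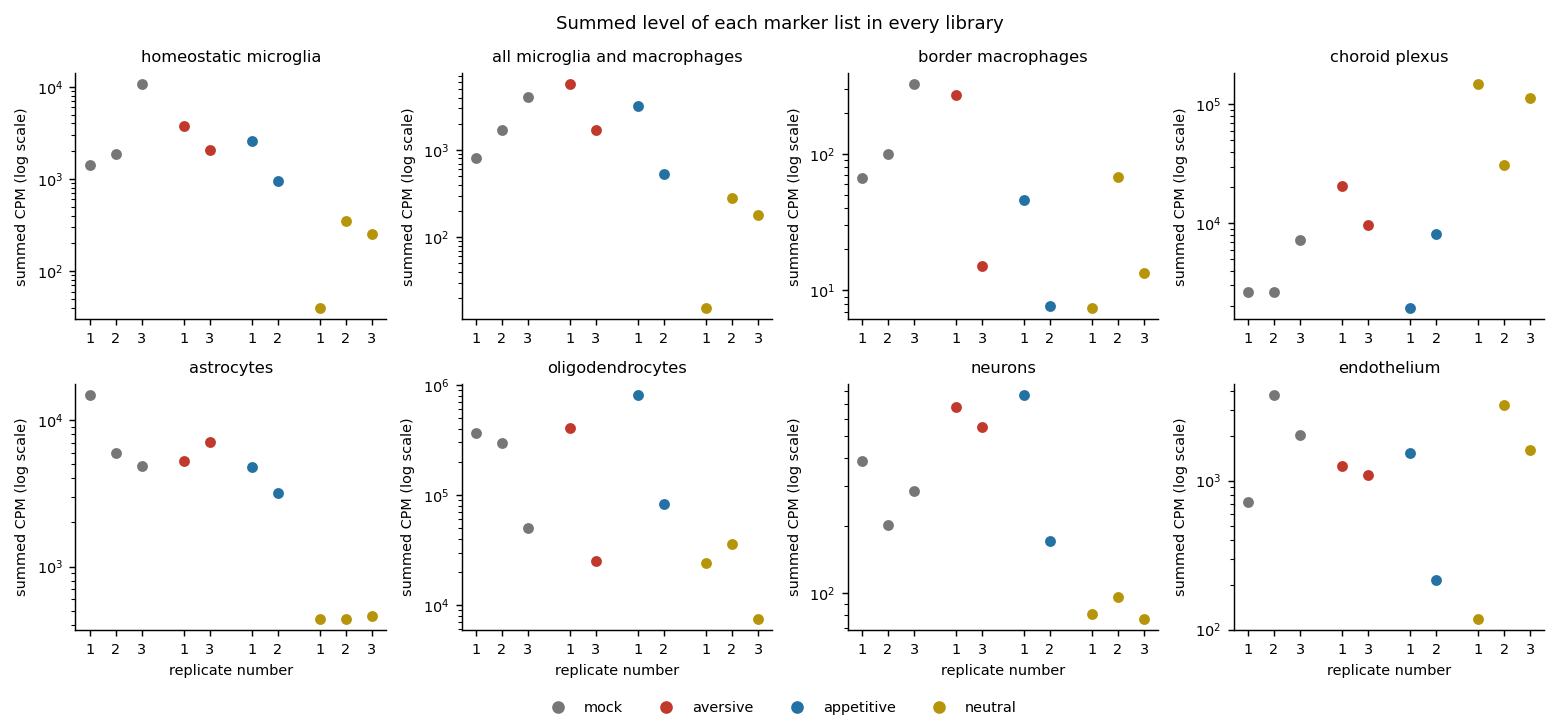
Summed CPM (log axis) of 8 lists of cell type markers in each library, by group and replicate number, 1 point per library. The neutral libraries are the lowest for homeostatic microglia (39.9 to 348 CPM), astrocytes (439 to 462 CPM) and neurons and the highest for choroid plexus (30975 to 147368 CPM).

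Trem2, Tyrobp and Cd68 formed the part of the program that was present at broadly similar levels in mock, aversive and appetitive libraries and at low levels in neutral libraries. Trem2 (ENSMUSG00000023992, chr17:48346401-48354147, GRCm38) was at 27.4, 67.4 and 170.0 CPM in mock, 260.0 and 84.9 CPM in aversive, 200 and 31.8 CPM in appetitive and 0, 27.7 and 6.9 CPM in neutral libraries. Every aversive and appetitive library lay above every neutral library, but the lowest mock library fell just below the highest neutral library. Tyrobp (ENSMUSG00000030579, chr7:30413760-30417585), the DAP12 adaptor that couples Trem2 to the kinase Syk, was at 57.2, 135 and 188 CPM in mock, 547 and 147 CPM in aversive, 212 and 87.4 CPM in appetitive and 0.489, 8.79 and 9.85 CPM in neutral libraries. All 7 libraries outside neutral were above the 3 neutral ones. Cd68 (ENSMUSG00000018774, chr11:69664213-69666153), a glycoprotein of phagocyte lysosomes, was at 32.3, 98.6 and 176 CPM in mock, 266 and 105 CPM in aversive, 238 and 43.9 CPM in appetitive and 5.44, 13.6 and 5.20 CPM in neutral libraries. For each of the 3 genes, aversive replicate 1 had the highest level of the 10 libraries, and the mock, aversive and appetitive groups overlapped.

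The fitted log2 difference between appetitive and aversive libraries was -0.57 (SE 1.95) for Trem2, -1.21 (SE 1.20) for Tyrobp and -0.40 (SE 1.06) for Cd68. Against neutral, the aversive libraries were higher by 3.90 (SE 1.85), 5.77 (SE 1.22) and 4.52 (SE 1.03) on the log2 scale for the same genes, and the appetitive libraries by 3.33 (SE 1.82), 4.55 (SE 1.16) and 4.13 (SE 1.02). Appetitive and mock libraries differed by 0.40 (SE 1.76) for Trem2, 0.24 (SE 1.08) for Tyrobp and 0.46 (SE 0.956) for Cd68, and with scaling by library size alone these signs turned, to -0.75, -0.58 and -0.61. They also turned without appetitive replicate 1, to -1.65, -0.73 and -1.40, and without mock replicate 1, to -0.17, -0.26 and -0.11. The 10 pan-microglial and macrophage markers, led by the complement subunit C1qb, were likewise lowest in neutral libraries, with summed levels of 808, 1699 and 4015 CPM in mock, 5657 and 1693 CPM in aversive, 3221 and 530.0 CPM in appetitive and 15.4, 278 and 178 CPM in neutral libraries. The part of these markers in the low neutral levels of Trem2, Tyrobp and Cd68 was not tested.

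**Figure D2:**
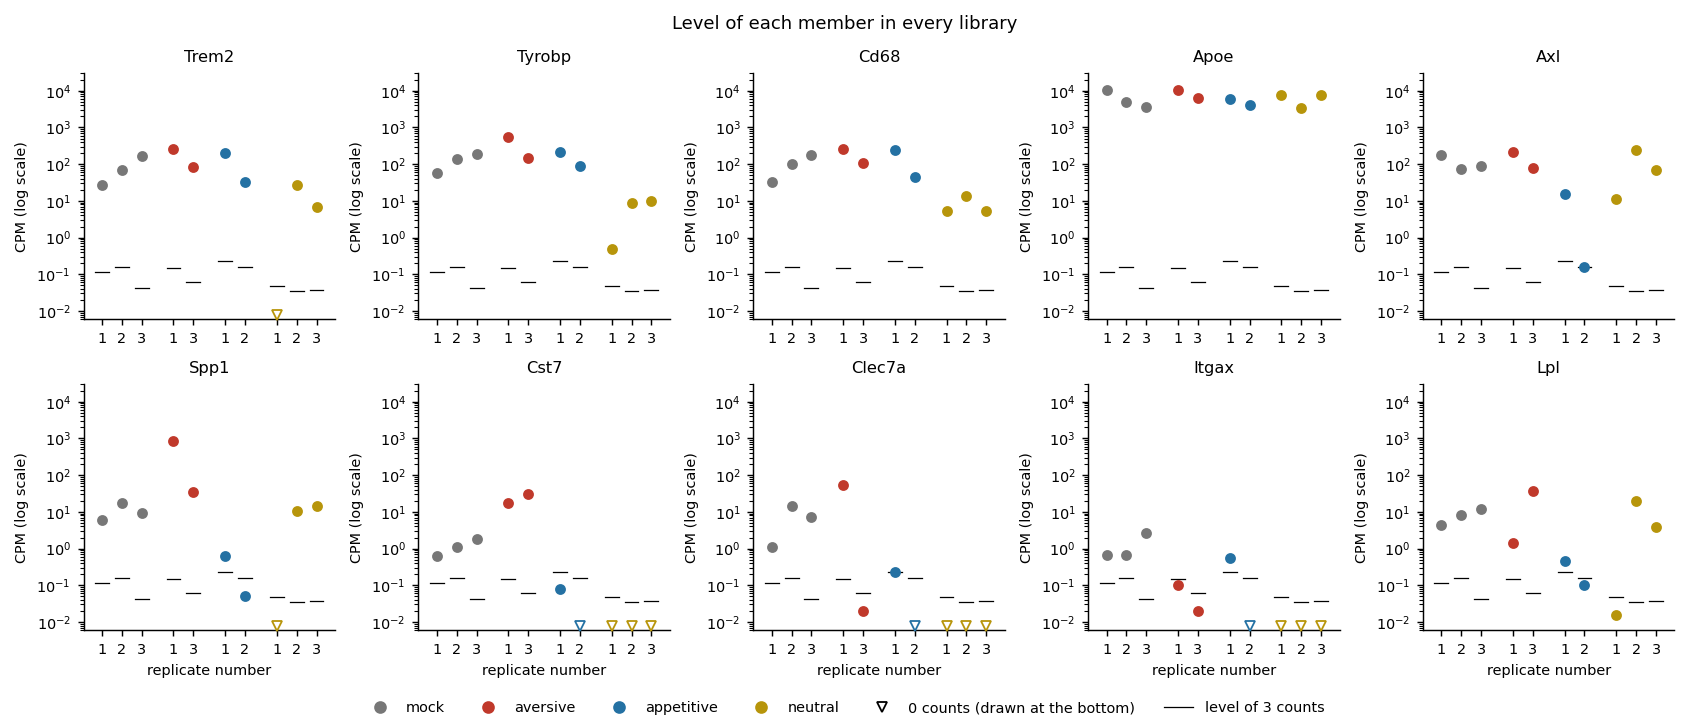
CPM (log axis) of the 10 genes in each library, by group and replicate number, with open triangles for 0 counts and short lines for the level of 3 counts. Spp1 and Cst7 stand highest in the 2 aversive libraries and near or below the line in the 2 appetitive libraries, whereas Trem2, Tyrobp and Cd68 are at 27.4 CPM or more in all 7 libraries other than neutral.

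The promoters of Trem2 and Cd68 are shown because these genes moved together and both hold TGANTCA (N, any base), in capitals below. Its presence in both was thus part of the choice. Cd68 held the form TGAGTCA, an AP-1 type site, and Trem2 held TGAATCA. The window runs from 250 bases before to 50 bases after the start (RefSeq, GRCm38.p6), at chr17:48346151-48346450 on the plus strand for Trem2 and chr11:69666121-69666420 on the minus strand for Cd68. The motif began at -9 from the start in Trem2 and at -149 and -24 in Cd68.
Trem2: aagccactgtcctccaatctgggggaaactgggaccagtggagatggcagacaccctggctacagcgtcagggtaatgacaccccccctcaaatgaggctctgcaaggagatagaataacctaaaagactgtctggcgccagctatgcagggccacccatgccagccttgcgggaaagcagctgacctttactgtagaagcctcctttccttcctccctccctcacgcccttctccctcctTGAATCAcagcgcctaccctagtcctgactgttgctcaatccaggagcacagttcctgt
Cd68: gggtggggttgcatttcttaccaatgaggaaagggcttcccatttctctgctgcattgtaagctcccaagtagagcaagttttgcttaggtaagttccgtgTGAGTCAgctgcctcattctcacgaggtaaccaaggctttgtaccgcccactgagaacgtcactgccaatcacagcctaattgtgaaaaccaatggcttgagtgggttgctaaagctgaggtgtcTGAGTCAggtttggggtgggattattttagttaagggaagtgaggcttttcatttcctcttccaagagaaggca
Of 32851 promoters of the same length, 7.81% held TGANTCA on either strand, and so did 4 of the 12 promoters that the table gives for 8 of the 10 genes (Trem2, Cd68, Cst7 and Itgax). The form was TGAGTCA in Cd68 and Itgax, TGAATCA in Trem2 and TGATTCA in Cst7. Tyrobp and Lpl have no entry. The E-box CACGTG, searched likewise, was in 7.15% of all promoters and in 0 of the 12.

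Spp1 (ENSMUSG00000029304, chr5:104435118-104441050) encodes osteopontin, a secreted ligand of integrins and of CD44. Its level was 5.89, 17.5 and 9.22 CPM in mock, 858 and 34.5 CPM in aversive, 0.626 and 0.0524 CPM in appetitive and 0, 10.7 and 14.4 CPM in neutral libraries. The aversive libraries were both above all others, the appetitive libraries were both below mock and aversive, and neutral replicate 1 had no count although it was sequenced to 60077131 counts. The counts behind the extremes were 17138 in aversive replicate 1 and 8 and 1 in the appetitive libraries. The group means were 446 ± 582 CPM (SD, n = 2) in aversive, 10.9 ± 5.98 CPM (SD, n = 3) in mock, 8.35 ± 7.47 CPM (SD, n = 3) in neutral and 0.339 ± 0.405 CPM (SD, n = 2) in appetitive libraries, and mock and neutral did not differ beyond their spread. The fitted log2 difference was 5.36 (SE 2.0) between aversive and mock, 5.74 (SE 2.04) between aversive and neutral, -10.40 (SE 2.99) between appetitive and aversive, and -5.04 (SE 2.36) between appetitive and mock. Without aversive replicate 1, the difference from mock was 1.58, that from neutral 2.04, and that between appetitive and aversive -6.79. Without appetitive replicate 1, the last was -13.15 and the appetitive to mock difference -7.82. The model Gm42793, which overlaps Spp1 on the same strand, had at most 1 count in any library.

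Cst7 (ENSMUSG00000068129, chr2:150570415-150578944), the secreted and lysosomal cathepsin inhibitor cystatin F, was the other gene with both aversive libraries above all others. It was at 17.5 and 31.3 CPM in aversive and at 0.637, 1.09 and 1.80 CPM in mock libraries, while the appetitive libraries had 1 and 0 counts and the neutral libraries 0. The aversive pair differed less between its libraries for Cst7 than for Spp1, and here replicate 3, not replicate 1, was higher. The fitted log2 difference between aversive and mock was 4.37 (SE 1.67), and it was 3.88 to 4.84 when each library was left out. Against the appetitive group, with 1 count in all, the ratio of summed counts was 870 (exact 95% interval 156 to 34400, counting error only) for aversive and 45.6 (8.07 to 1810) for mock. Against the floor of 3 counts in a neutral library, the aversive mean of 24.4 ± 9.78 CPM (SD, n = 2) was at least 516-fold higher and the mock mean of 1.18 ± 0.584 CPM (SD, n = 3) at least 24.9-fold higher.

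The promoters of Spp1 and Cst7 are shown because these were the genes with the highest levels in both aversive libraries. For Spp1 (chr5:104434861-104435160, plus strand), the capitals mark GAGGAAGT, the ETS-type site that the microglial factor PU.1 is known to bind, at -113 from the start. For Cst7 (chr2:150570165-150570464, plus strand), they mark TGANTCA, at -6.
Spp1: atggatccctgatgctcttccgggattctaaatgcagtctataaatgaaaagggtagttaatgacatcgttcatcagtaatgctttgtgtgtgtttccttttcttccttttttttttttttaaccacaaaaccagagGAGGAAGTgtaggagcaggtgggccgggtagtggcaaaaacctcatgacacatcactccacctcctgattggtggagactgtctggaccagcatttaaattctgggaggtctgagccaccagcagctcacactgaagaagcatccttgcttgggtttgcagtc
Cst7: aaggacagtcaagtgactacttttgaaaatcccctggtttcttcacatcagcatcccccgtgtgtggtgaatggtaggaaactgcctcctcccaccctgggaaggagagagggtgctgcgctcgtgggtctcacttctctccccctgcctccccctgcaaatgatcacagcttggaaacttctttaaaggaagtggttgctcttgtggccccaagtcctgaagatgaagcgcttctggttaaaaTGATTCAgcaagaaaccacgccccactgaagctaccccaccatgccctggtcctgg
GAGGAAGT was on either strand of 3.2% of the 32851 promoters and in 1 of the 12 promoters of the genes described here, that of Spp1, whose further RefSeq start did not have it. A match describes the letters of this window only.

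Clec7a and Itgax, a receptor for fungal beta-glucan (Dectin-1) that signals through Syk, and the integrin subunit CD11c, were detected in mock but unevenly elsewhere. Clec7a (ENSMUSG00000079293, chr6:129461591-129472779, annotated as a polymorphic pseudogene in GENCODE M21) was at 1.11, 14.3 and 7.21 CPM in mock, 53.0 and 0.02 CPM in aversive and 0.235 and 0 CPM in appetitive libraries, with 0 counts in all neutral libraries. The aversive value rested on replicate 1, with 1060 counts against 1 in replicate 3, and without it the aversive to mock difference turned from 1.82 (SE 2.27) to -8.45 on the log2 scale. Mock libraries lay above both appetitive libraries, at a ratio of summed counts of 75.0 (exact 95% interval 25.6 to 364, counting error only) to the 3 appetitive counts. Itgax (ENSMUSG00000030789, chr7:128129547-128150657) was at 0.677, 0.677 and 2.69 CPM in mock, 0.1 and 0.02 CPM in aversive and 0.547 and 0 CPM in appetitive libraries, again with 0 counts in neutral. It was the only one of the 10 genes with its highest group mean in mock, at 1.35 ± 1.17 CPM (SD, n = 3), and the ratio of mock to the 3 aversive counts was 45.0 (exact 95% interval 15.2 to 220.0, counting error only). Against the neutral floor the mock mean was at least 28.5-fold higher for Itgax and at least 159-fold higher for Clec7a. The aversive libraries, the highest for Spp1 and Cst7, thus held 2 and 1 counts of Itgax.

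Apoe, Axl and Lpl are expressed by other brain cells as well as by activated microglia. Apoe (ENSMUSG00000002985, chr7:19696109-19699188), the main lipid carrier of the brain and abundant in astrocytes, was at 10809, 5040 and 3561 CPM in mock, 10578 and 6457 CPM in aversive, 5829 and 4220 CPM in appetitive and 7570, 3438 and 7532 CPM in neutral libraries. Both appetitive libraries were below the aversive ones, with a log2 difference of -0.76 (SE 0.646), and all other pairs of groups overlapped, with fitted differences of 0.46 or less in size. In neutral libraries, where Apoe was at 3438 to 7570 CPM, the 8 astrocyte markers summed to 439, 441 and 462 CPM, against 3177 to 14728 CPM in the other libraries. Aldoc led this list over all libraries, but in neutral replicates 1 and 3 Sox9 did. Sox9 was not low in neutral, at 273, 96.5 and 192 CPM, against 0.313 to 194 CPM in the other libraries. The 8 choroid plexus markers were at their highest in neutral libraries, and their part in the Apoe level was not tested.

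Axl (ENSMUSG00000002602, chr7:25757273-25788705), a receptor tyrosine kinase that binds Gas6 on dying cells, was at 174, 73.9 and 90.6 CPM in mock, 216 and 79.7 CPM in aversive, 15.3 and 0.157 CPM in appetitive and 11.0, 248 and 68.3 CPM in neutral libraries. Both appetitive libraries were below mock and aversive, with log2 differences of -3.87 (SE 1.72) and -4.26 (SE 1.80), and neutral overlapped all groups. Without appetitive replicate 1 these differences were -9.70 and -10.01. Lpl (ENSMUSG00000015568, chr8:68880491-68907448), lipoprotein lipase, was at 4.46, 7.97 and 11.6 CPM in mock, 1.4 and 38.0 CPM in aversive, 0.469 and 0.105 CPM in appetitive and 0.0158, 19.7 and 3.96 CPM in neutral libraries. Appetitive Lpl was again below mock and aversive, with log2 differences of -4.81 (SE 2.51) and -6.11 (SE 2.73), but with 6 and 2 counts. Aversive Lpl came mainly from replicate 3, the reverse of Spp1 and Clec7a, and without it the aversive to mock difference turned from 1.30 (SE 1.95) to -2.52 and the appetitive to aversive difference went from -6.11 to -2.31. Within neutral, Axl and Lpl were lowest in replicate 1 and highest in replicate 2. The 8 endothelial markers went in the same order, at 118, 3228 and 1604 CPM in replicates 1 to 3. So did the homeostatic (39.9, 348 and 253 CPM) and pan-microglial markers (15.4, 278 and 178 CPM). Markers of border macrophages, meningeal fibroblasts and oligodendrocyte precursors also did, but not those of astrocytes, neurons or choroid plexus. The part of these lists was not tested.

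Genes were set in order by CPM per kb, with length taken over all annotated exons of a gene. The level in aversive libraries was highest for Apoe, at 3984 ± 1363 (SD, n = 2), then Tyrobp at 521 ± 424, Spp1 at 271 ± 353, Cd68 at 148 ± 90.8, Trem2 at 34.8 ± 25.0, Axl at 29.4 ± 19.2, Cst7 at 24.7 ± 9.92, Clec7a at 10.1 ± 14.2, Lpl at 1.88 ± 2.47 and Itgax at 0.0125 ± 0.0118. Apoe stood above Tyrobp, Cd68 above Trem2 and Cst7 above Clec7a by more than either SD, and the other neighbours in this order did not differ beyond their spread. The last 2 of these gaps rested on the lengths used, 1257 and 4946 bp for Cd68 and Trem2 and 986 and 2638 bp for Cst7 and Clec7a. By CPM alone they were at 186 ± 114 and 172 ± 124, and at 24.4 ± 9.78 and 26.5 ± 37.5 (SD, n = 2). Which annotated exons were transcribed was not tested, so places in this order hold for these lengths only. In appetitive libraries the order was Apoe, Tyrobp, Cd68, Trem2 and Axl at 2350, 225, 112, 23.5 and 1.54, followed by Spp1 at 0.206 and by Itgax, Clec7a, Cst7 and Lpl at 0.057 or less. By group means Spp1 thus stood in place 3 of 10 in aversive, 5 in neutral and 6 in appetitive and mock libraries. In aversive replicate 3 alone, at 20.9 CPM per kb, it stood behind Apoe, Tyrobp, Cd68 and Cst7.

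Relating each gene to Tyrobp within a library removes the scaling between libraries. Trem2 gave 48.0, 49.9 and 90.4 counts per 100 Tyrobp counts in mock, 47.5 and 57.6 in aversive and 94.5 and 36.4 in appetitive libraries, so the 7 libraries stayed within 36.4 to 94.5. Cd68 likewise stayed within 48.7 to 112 per 100 in those 7. In neutral replicates 1, 2 and 3, with only 31, 761 and 767 Tyrobp counts, both left these ranges except in replicate 3, with Trem2 at 0, 316 and 70.0 and Cd68 at 1110, 154 and 52.8 per 100. Spp1 gave 10.3, 12.9 and 4.91 per 100 Tyrobp counts in mock, 157 and 23.4 in aversive and 0.295 and 0.0599 in appetitive libraries, with no overlap between the 3 groups. In neutral libraries it gave 0, 121 and 146 per 100, the last 2 between the aversive values. Cst7 gave 1.11, 0.809 and 0.957 per 100 in mock, 3.19 and 21.2 in aversive and 0.0369 and 0 in appetitive libraries, again with no overlap.

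**Figure D3:**
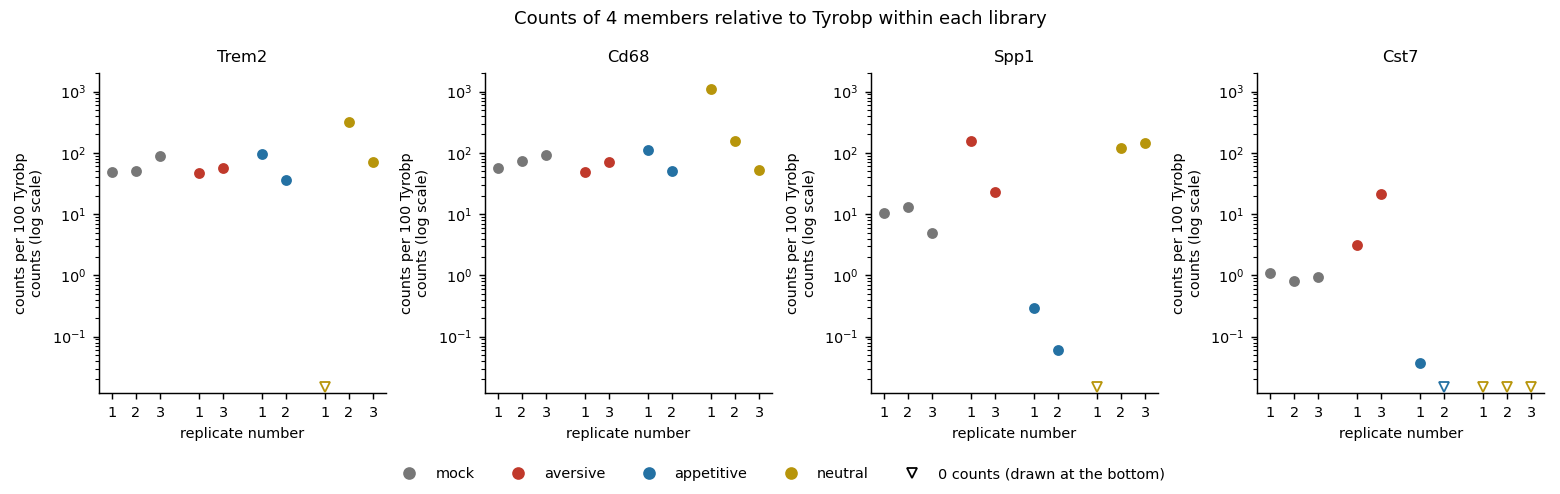
Counts of Trem2, Cd68, Spp1 and Cst7 per 100 Tyrobp counts of the same library (log axis), 1 point per library, with open triangles for 0 counts. Trem2 lies between 36.4 and 94.5 in the 7 libraries other than neutral, and Spp1 between 0.0599 and 157 in the same libraries.

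All 10 genes were among the 19754 that passed the expression filter, where Cst7, Clec7a and Itgax had at most 7 counts in any appetitive or neutral library. In edgeR's quasi-likelihood test with Benjamini-Hochberg adjustment over all tested genes, the members with an adjusted p under 0.05 numbered 0 between aversive and neutral (0.0405% of all tested genes), 2 between appetitive and neutral (Tyrobp and Cd68, against 6.17%), 0 between appetitive and aversive (1.80%), 0 between aversive and mock (0%), 0 between appetitive and mock (1.98%) and 0 between neutral and mock (0.0861%). At an unadjusted p under 0.05 the numbers were 5, 4, 5, 2, 2 and 5 in the same order, against 19.1%, 29.2%, 20.0%, 9.96%, 23.8% and 13.5% of all tested genes. With DESeq2 they were 5, 3, 4, 1, 1 and 5, against 16.2%, 29.0%, 24.1%, 7.96%, 28.0% and 7.61% of the genes to which it gave an adjusted p. Counted by groups that did not overlap, 7 members were higher in aversive than in neutral (14.4% of tested genes), 3 higher in appetitive than in neutral (11.4%), 2 higher in aversive than in mock (11.4%), 5 lower in appetitive than in aversive (20.1%), 6 lower in appetitive than in mock (38.9%) and 5 lower in neutral than in mock (15.9%). Itgax went the other way between aversive and mock, with both aversive libraries below all mock libraries. These comparisons share libraries, and because the members were chosen with such results known, nothing is read from their counts.

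Between appetitive and aversive libraries, 9 of the 10 genes had a negative fitted difference, with a median of -2.74 on the log2 scale against -0.48 over all tested genes. The exception, Itgax, rested on 7 and 3 counts. Between aversive and mock libraries the median was 1.13 against -0.13, with 9 positive, and between appetitive and mock -3.09 against -1.45, with 7 negative. Against neutral, genes at or under 3 counts in every library of both groups were left out and genes at 0 in neutral were set at their bound, which gave a median of 4.52 over 9 genes for aversive and 1.12 over 8 genes for appetitive libraries, against -0.15 and -0.91 over all tested genes.

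**Figure D4:**
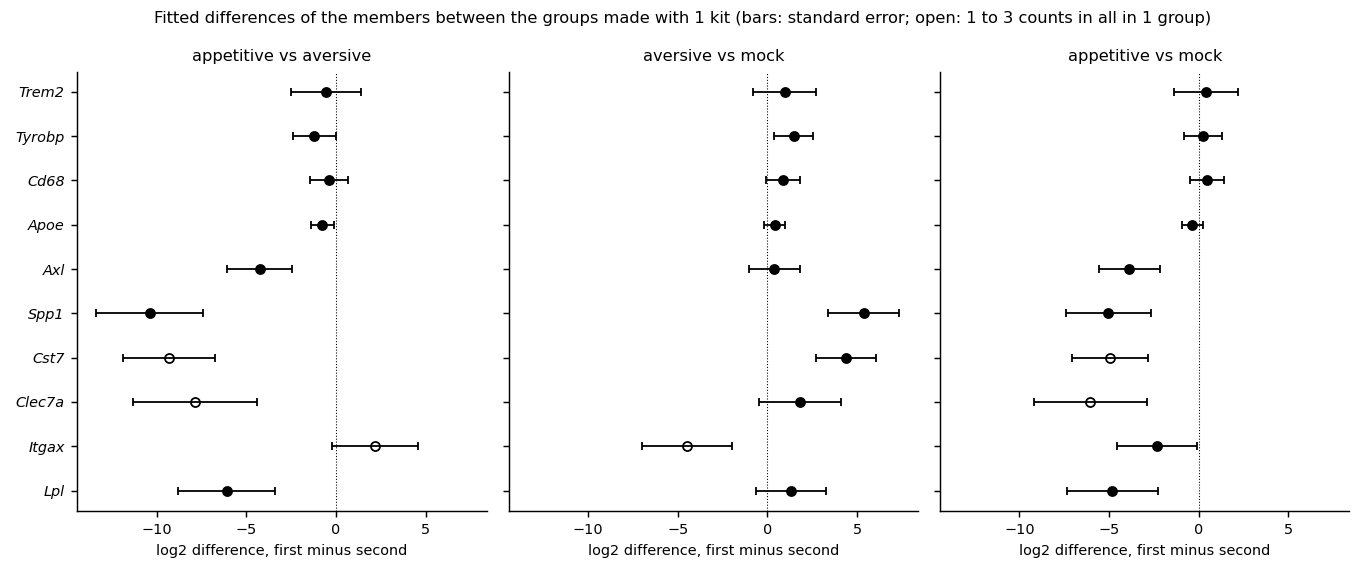
Fitted log2 difference (points) and its standard error (bars) of the 10 genes for the 3 comparisons between groups made with the same kit; open points have 1 to 3 counts in all in 1 of the groups. Spp1 is at -10.40 between appetitive and aversive and 5.36 between aversive and mock, while Trem2, Tyrobp, Cd68 and Apoe lie within 1.46 of 0 in all 3 panels.

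The 35 other genes of the activated state were examined next, of which 34 were tested. Between appetitive and neutral libraries, 4 passed the test. Higher in appetitive libraries were Fth1, the ferritin heavy chain (log2 difference 5.14, SE 1.16, edgeR adjusted p = 0.0324), and Fabp5, a fatty acid binding protein (3.86, SE 0.983, adjusted p = 0.0439). Lower were Plin2, which coats lipid droplets (-7.49, SE 1.50, adjusted p = 0.0229), and Capg, an actin capping protein (-7.15, SE 1.85, adjusted p = 0.046). Plin2 was at 0.156 and 0.262 CPM in appetitive libraries, against 24.1, 99.8 and 30.6 CPM in mock, 56.6 and 11.7 CPM in aversive and 38.8, 35.8 and 40.6 CPM in neutral libraries. It was the gene of this list that was also lower in appetitive than in aversive libraries (-7.32, SE 1.51, adjusted p = 0.0382) and than in mock libraries (-7.91, SE 1.52, adjusted p = 0.0341), and its 2 appetitive libraries lay below all 8 others. Capg was at 0.391 and 0.262 CPM in appetitive libraries, but also at 1.32 CPM in aversive replicate 3.

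Not all genes of the list followed Plin2. Fabp5 was at 79.4 and 88.6 CPM in appetitive libraries, the highest values of the 10, and at 55.6 and 72.6 CPM in aversive, 31.5 to 35.2 CPM in mock and 1.85 to 11.9 CPM in neutral libraries. Fth1 is also a gene of oligodendrocytes, and its 132900 CPM in appetitive replicate 1 came in the library with the largest share of Mbp counts, whose part was not tested. In the comparisons of aversive with neutral, aversive with mock and neutral with mock, edgeR called 0 of the 34, with 6, 2 and 11 at an unadjusted p under 0.05 and 6, 1 and 6 by DESeq2. The list's median difference was -0.46 between appetitive and aversive libraries, against -0.48 over all tested genes, and 0.21 between aversive and mock libraries, against -0.13. It was -0.02 between appetitive and mock libraries, against -1.45, and 0.44 between appetitive and neutral libraries, against -0.91. For these medians, genes at 0 counts in a group were taken at their bound. The calls between appetitive and the other groups were few and lay near the threshold: Plin2 was called in 9 of 16 alternative analyses against neutral, 7 of 17 against aversive and 8 of 17 against mock, with the same sign in all.

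**Figure D5:**
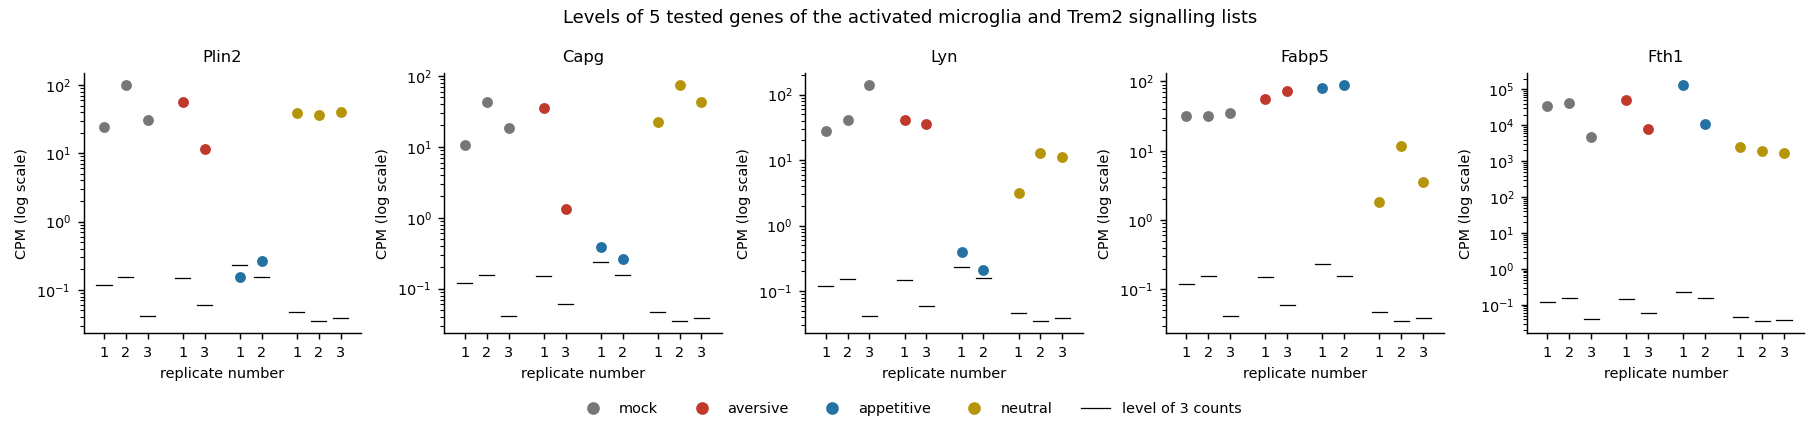
CPM (log axis) of Plin2, Capg, Lyn, Fabp5 and Fth1 in each library, by group and replicate number, with short lines for the level of 3 counts. Plin2, Capg and Lyn are at 0.391 CPM or less in both appetitive libraries and at 1.32 CPM or more in all others.

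Downstream of the receptors, 15 genes that carry signals from Trem2, Tyrobp and Clec7a were tested. Lyn, a Src family kinase, was lower in appetitive than in aversive libraries (-6.99, SE 1.52, edgeR adjusted p = 0.0453) and than in mock libraries (-7.86, SE 1.55, adjusted p = 0.0358). Its levels were 0.391 and 0.21 CPM in appetitive, 40.9 and 35.7 CPM in aversive, 28.1, 41.5 and 140.0 CPM in mock and 3.16, 12.9 and 11.1 CPM in neutral libraries, so the appetitive libraries lay below all others. The other 4 comparisons had 0 calls by edgeR, 1 to 4 genes at an unadjusted p under 0.05 and 0 to 3 by DESeq2. The list's median difference from mock was -2.68 in appetitive, -2.61 in aversive and -2.6 in neutral libraries. Over all tested genes these medians were -1.45, -0.13 and 0.08. Inpp5d, the phosphatase SHIP1 that restrains this pathway and the most abundant gene of the list, was at 112 and 2.46 CPM in aversive and 65.4 and 50.8 CPM in appetitive libraries, which overlapped.

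Receptors of osteopontin, listed together with the integrin partner of Itgax, gave 1 call among 12 genes. Itgav, the alpha-V integrin subunit, was higher in appetitive than in neutral libraries (3.77, SE 0.89, edgeR adjusted p = 0.0364), at 184 and 82.5 CPM against 9.37, 14.1 and 5.86 CPM. It went against its list there, since the other 11 genes had negative differences and the list's median was -2.88, against -0.91 over all tested genes, with genes at 0 counts in a group taken at their bound. The other 5 comparisons had 0 calls, with 1 to 4 genes at an unadjusted p under 0.05 and 1 to 4 by DESeq2. Itgb1, the beta-1 subunit and the most abundant of the list, was at 181 and 61.6 CPM in appetitive and 264 and 88.4 CPM in aversive libraries. By edgeR, 0 of the 4 ligands and sister receptors of Axl, 0 of 13 tested genes of lipid handling and 0 of 7 cathepsin and lysosomal genes passed in any of the 6 comparisons, with at most 1, 3 and 2 at an unadjusted p under 0.05 and at most 1, 3 and 1 by DESeq2. Their most abundant genes were Gas6, at 4.3 and 66.0 CPM in appetitive and 119 CPM or more in all other libraries, the lipoprotein receptor Lrp1, at 26.0 to 278 CPM, and Cst3, the cystatin C of brain macrophages and astrocytes, at 1465 to 9572 CPM.

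Among the 10 pan-microglial markers, Fcer1g, an Fc receptor gamma chain, was higher in appetitive than in neutral libraries (4.10, SE 1.01, edgeR adjusted p = 0.0411), at 213 and 20.5 CPM against 3.96, 8.88 and 7.52 CPM. That call held in 6 of 16 alternatives, with differences of 1.49 to 4.88. The other 5 comparisons had 0 calls for this list and for the 12 homeostatic markers, with up to 7 and 9 genes at an unadjusted p under 0.05 and up to 5 and 7 by DESeq2. Between appetitive and aversive libraries the homeostatic list had a median of -0.74 and the pan-microglial list of -0.93, against -0.48 over all tested genes. Of 8 macrophage markers of the brain's borders, F13a1, a coagulation factor subunit, was lower in appetitive than in mock libraries (-8.86, SE 1.98, adjusted p = 0.0494). It was at 20.7, 20.8 and 52.0 CPM in mock and at 0.35 CPM or less in all aversive, appetitive and neutral libraries. Pf4, a platelet and macrophage chemokine, passed between appetitive and neutral libraries (adjusted p = 0.0439), but on 1 library, at 23.6 and 0 CPM in appetitive and 0 CPM in all neutral libraries, and the call held in 7 of 15 alternatives. Of the 6 border markers with a computable difference there, Pf4 was the single positive one, and their median was -2.01. The summed level of the 8 markers was 66.5, 99.6 and 323 CPM in mock, 269 and 15.1 CPM in aversive, 46.3 and 7.65 CPM in appetitive and 7.43, 68.2 and 13.4 CPM in neutral libraries. Spp1 and Clec7a were higher in aversive replicate 1 than in replicate 3, and in mock libraries both were highest in replicate 2. The part of border macrophages in their levels was not tested. Monocyte and neutrophil markers gave 0 calls among 7 tested genes by edgeR, with 1 to 4 at an unadjusted p under 0.05 and 0 to 4 by DESeq2, and S100a9, their most abundant gene, had 0 counts in both aversive libraries.

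Likeness over the 10 libraries, measured as Pearson's r of log2(CPM + 1), separated Tyrobp from Spp1. The genes most like Tyrobp were C1qa (r = 0.986) and C1qb (0.985), both complement subunits, Ctss (0.97), a cathepsin, Ly86 (0.96) and Trem2 (0.947), and Cd68 was number 10 (0.943). The genes most like Spp1 were E230029C05Rik (0.95), Cadps (0.944), Cabp1 (0.92), Amt (0.92) and Flvcr1 (0.913), none of them a microglia marker of the lists, and all 5 had their highest level in aversive replicate 1. Of the other members, Cst7 (0.754), Clec7a (0.719) and Axl (0.711) were closest to Spp1, and Tyrobp gave 0.49. These values describe 10 libraries of 4 groups that share depth and cell content within a library, and the values with Spp1 lean on 1 library.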

How the data were processed

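RNA-seq counts from 10 libraries were analysed. The authors mapped the first 40 bp of the reads with STAR to mm10 (Ensembl GRCm38 annotation), counted reads per gene with featureCounts without regard to strand, and deposited raw counts for 53379 genes per library, so a gene and an overlapping antisense gene were not told apart. Tool versions are not given in the sources used here. Each library was grouped by its label. Gene names, positions and exon lengths came from GENCODE M21, to which 53274 identifiers were matched.

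Counts were fitted in R 4.3.3 with edgeR 4.0.16 (TMM, filterByExpr, 1 quasi-likelihood model with 4 groups over the 10 libraries, two-sided, Benjamini-Hochberg over 19754 genes, adjusted p under 0.05). The spread was large, with a common dispersion of 1.49. DESeq2 1.42.0 (limma 3.58.1 was loaded by edgeR), other scalings, no filter, subsets of libraries, the replicate number as a block and leaving out each library were alternatives. Standard errors were derived from the F statistics. The steps were tested on simulated data.

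The members and all gene lists were chosen with earlier results of these data known. The genes named are the 10 members, up to 3 called genes in each direction with the smallest p of each list, the most abundant gene of each list, and the 5 genes most like Spp1 and Tyrobp. Markers at 0 and the astrocyte marker Sox9 are named in addition. Of the genes under this rule, 1 is included in totals and is not reported here by name. Promoters were read from RefSeq (GRCm38.p6). Python 3.11.15 with pandas 2.3.3 and matplotlib 3.10.9 was used for tables and plots. Methylation, FACS and behavior data were not analysed here.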

Additional observations from a re-analysis of the deposited data

How the results depend on the processing

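Genes called at an adjusted p under 0.05 are counted here in the order aversive with neutral, appetitive with neutral, appetitive with aversive, aversive with mock, appetitive with mock and neutral with mock. The edgeR model over 10 libraries gave 8, 1218, 356, 0, 391 and 17 of all tested genes. DESeq2's Wald test gave 3388, 6053, 3986, 1460, 4803 and 1589, and edgeR without the expression filter 863, 2535, 1270, 10, 1124 and 520. With DESeq2's size factors in edgeR the appetitive with mock count was 260, and with library size alone the neutral with mock count was 8. Fitting the compared groups alone gave 0, 0, 0, 0, 3585 and 0, and the 7 libraries of the same kit 0 in each of the 3 comparisons among them. Of the 34 tested genes of the activated state, the edgeR model called 0, 4, 1, 0, 1 and 0, DESeq2 6, 7, 4, 1, 5 and 6, edgeR without the filter 4, 8, 3, 0, 2 and 5, compared groups alone 0, 0, 0, 0, 3 and 0, and the same-kit libraries 0 in each.

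Leaving out 1 library at a time gave 0 to 453, 67 to 2661, 0 to 1460, 0 to 0, 0 to 1800 and 0 to 84 of all genes, and 0 to 0, 0 to 4, 0 to 2, 0 to 0, 0 to 2 and 0 to 0 genes of the activated state. Where this left 1 library in a group, that library was assumed to vary like the others. The numbers of calls between appetitive libraries and aversive or mock libraries fell to 0 without any single mock library, and without neutral replicates 1 or 3.

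Whether the replicate numbers pair the libraries could not be settled. Deviations of same-numbered libraries from their group means correlated between -0.0371 and 0.164, but in a group of 2 libraries these deviations mirror each other. Between mock and neutral libraries, same-numbered pairs gave 0.135, 0.1 and 0.055, and the other pairs gave -0.104 to -0.00126. A block for the replicate number gave 0, 73, 0, 0, 0 and 0 of all genes and 0 of the activated state genes in each comparison.

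For the 10 members, 983 alternative values of a log2 difference were computed, of which 914 moved by less than the spread between replicates or kept their call, 49 moved by more, and 42 changed sign. Because that spread was wide, the 914 do not show stability. Between neutral and mock libraries, 2 values moved by more than the spread and 14 changed sign. The calls of Tyrobp and Cd68 between appetitive and neutral libraries were each lost in 10 of 16 alternatives, with log2 differences of 3.64 to 5.03 and 2.34 to 4.80. No filter, DESeq2 and its size factors kept both calls. The calls named for genes of the other lists held in 4 (Lyn, appetitive with aversive) to 15 (Slc1a2, Ccl3 and Ccl4, appetitive with neutral) of 15 to 17 alternatives, with no change of sign. The median difference of all genes between appetitive and mock libraries was -1.45 with TMM and -1.93 with library size alone, so differences of the members there are read against it. Leaving out 1 library moved at least 1 difference by more than the spread between replicates for each member but Apoe. At the depth of these libraries, levels under 0.0346 to 0.235 CPM were not detectable.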

Other observations

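The remaining lists describe the cells around the microglia. Of the astrocyte markers, Slc1a2, a glutamate transporter, was higher in aversive (log2 difference 7.51, SE 0.944, adjusted p = 0.0357) and in appetitive (6.45, SE 0.903, adjusted p = 0.0102) than in neutral libraries by edgeR, and Slc1a2, Slc1a3 and Aldoc were lower in neutral than in mock libraries (-6.53, -5.52 and -4.60). Against neutral, 7 of the 8 astrocyte markers had positive differences in aversive and in appetitive libraries, and 1, Sox9, had negative ones. Choroid plexus markers were higher in neutral libraries, with 5 of 8 lower in appetitive than in neutral libraries by edgeR, among them Ttr (-5.44, SE 1.04, adjusted p = 0.021), Folr1 and Aqp1. The endothelial receptor Tek was lower in appetitive than in neutral, aversive and mock libraries (-7.69, -8.62 and -8.55), the neurofilament Nefl was lower in appetitive than in aversive libraries (-7.92, SE 1.61, adjusted p = 0.0371), and Snap25, a synaptic protein, was higher in appetitive than in neutral libraries (4.18, SE 0.86, adjusted p = 0.0244), where 4 of the 8 neuronal markers had positive and 4 negative differences, with a median of -0.29 against -0.91 over all tested genes. Igf2, a growth factor of the meninges, had 0 counts in both appetitive libraries and 65.9 ± 54.4 CPM (SD, n = 3) in neutral libraries (adjusted p = 0.037). Markers of oligodendrocytes and their precursors gave 0 calls by edgeR in any of the 6 comparisons, with up to 7 and 5 genes at an unadjusted p under 0.05 and up to 3 and 4 by DESeq2.

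Of 22 genes known to rise during warm dissociation of brain tissue, Ccl3 and Ccl4, chemokines of activated microglia, had 0 counts in all neutral libraries. Their means were 198 ± 133 and 363 ± 412 CPM in aversive (SD, n = 2), 197 ± 109 and 425 ± 224 CPM in appetitive (SD, n = 2) and 92.7 ± 76.4 and 164 ± 117 CPM in mock libraries (SD, n = 3), and edgeR called both in each comparison with neutral (adjusted p of 0.0357, 0.00993 and 0.0482). Between appetitive and aversive libraries, 0 of the 22 passed by edgeR, with 1 at an unadjusted p under 0.05 and 2 by DESeq2. The list also held Tnf, higher in appetitive than in neutral libraries (10.74, SE 2.0, adjusted p = 0.0191), at 36.1 and 3.25 CPM against 0, 0 and 0.0257 CPM.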
